A study of Mus musculus with 8 samples.

Results

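Transcripts of 10 B cell surface differentiation markers (Cd38, Fcer2a, Cd55, Cd1d1, Ms4a1, Cd72, Cd24a, Cd37, Cd53 and Ptprc) were followed in B cells that had begun to respond to antigen but had not yet formed germinal centers. The members were taken by gene symbol, from a list chosen with earlier results of these data known. All 10 of them were found among the 24259 genes of the count table. They were abundant enough to enter the test, in which 12744 genes were compared. B cells that bound the hapten NP, were IgD-low and carried B220 were sorted from lymph nodes 3 days after immunization with NP-OVA given with LPS in alum. The recipients were CD45.1 Sap-/- mice on the C57BL/6 background, so in both groups the host's own T cells lacked the adaptor SAP, and help was supplied by OT-II T cells given by transfer. HET denotes recipients of Cd4-cre × Bcl6 fl/+ helpers, with 1 floxed Bcl6 allele deleted under the Cd4 promoter, and WT denotes recipients of Cd4-cre helpers. Each group had 4 libraries of about 200 cells, and per the methods of the study these repeats were sorted from cells pooled over the recipients of a group. The error between libraries thus covers the sort and the preparation of libraries but not the animals, p-values measure only that spread, and the group cannot be told apart from its pool. Bcl6 was deleted in the helpers only, so no deleted gene could be read in the sequenced cells as a check of the group names.

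Surface markers of this kind are used to follow B cell differentiation. Cd38, Fcer2a (CD23), Cd55 and Cd1d1 are carried by resting mature B cells in different amounts, and in the mouse Cd38 and Fcer2a are lost from the surface as cells become germinal center B cells. Ms4a1 (CD20), Cd72, Cd37, Cd53 and Ptprc (CD45) are kept through most of the life of a mature B cell, and Cd24a (heat-stable antigen) is carried by immature and activated cells. The comparison addressed whether these markers differed between B cells helped by Bcl6-haploinsufficient and by control T cells.

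Libraries held between 6652386 and 12559189 counts, with the highest total in HET replicate 1. All 10 genes of a B cell marker list were detected in every library, and their summed level was 9854 to 10932 CPM (counts per 1000000 after scaling of library sizes) in HET and 11309 to 12368 CPM in WT. Markers of other cells were far lower. The summed level of 14 T cell genes was 386 to 691 CPM in HET and 226 to 563 CPM in WT, and that of 10 NK cell genes was 107 to 417 CPM and 73.7 to 213 CPM. For 16 myeloid genes the sums were 66.9 to 212 CPM and 37.3 to 449 CPM. No gene of these lists was at 0 in all libraries, although Cd4 itself was at most 0.758 CPM in HET and 0.731 CPM in WT. The sum of 12 plasmablast genes was 2333 CPM in HET replicate 1 and 304 to 716 CPM in the other 7 libraries. Jchain alone was at 1575.9 CPM in HET replicate 1, against at most 97.1 CPM in the other HET libraries and 94.8 CPM in WT. Of 10 erythroid and platelet genes 6 were measured, with sums of at most 12.5 CPM, and of 10 stromal and endothelial genes 4 were measured, with sums of at most 15.8 CPM.

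The members lie on 8 chromosomes (GENCODE M21, GRCm38). Ptprc (chr1:138062861-138175708) and Cd55 (chr1:130439027-130462744) share chromosome 1, and Cd53 (chr3:106759921-106790149) and Cd1d1 (chr3:86995834-86999441) share chromosome 3, all on the minus strand. Cd38 is at chr5:43868553-43912375 and Cd24a at chr10:43578284-43584265, both on the plus strand. On the minus strand are Fcer2a at chr8:3681737-3694175, Ms4a1 at chr19:11249675-11266241, Cd72 at chr4:43446462-43454628 and Cd37 at chr7:45233632-45239115. Cd72 shared 41.6% of its exon bases with Tesk1 on the opposite strand. Its counts are uncertain for that reason. The strand setting of the counting was not given in the sources used here. Of the windows of 50 bases in the transcripts of Cd1d1, 19.1% also occurred in its copy Cd1d2, and for Cd55 8.0% occurred in Cd55b. Both copies were measured at low levels, at most 2.15 CPM for Cd1d2 and at most 2.34 CPM for Cd55b.

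Promoter sequences (250 bases before to 50 after the transcript start, RefSeq, GRCm38.p6) were matched for 7 of the 10 members, with no entry matched for Cd1d1, Ms4a1 and Cd24a. They were searched on both strands for the letters of 6 motifs of B cell and activation factors: octamer ATGCAAAT, NF-kB GGNNTTTCC, AP-1 TGANTCA, STAT TTCNNNGAA, EBF CCCNNGGG and ETS GAGGAAGT. The ETS letters were found in Cd53, Cd37 and Cd72, each time as ACTTCCTC on the strand printed, against 3.11% of 32544 promoters of the same length. Those 3 promoters are shown because they share these letters. The window of Cd38 is shown because it belongs to the member with the lowest p and holds none of the 6 motifs. The windows of Cd38, Cd37 and Ptprc lie wholly within the GENCODE spans given above. Their RefSeq starts, from which positions are counted here, thus differ from the GENCODE gene starts. Capitals mark the matches, which in Cd53 also include the EBF letters, and no matches overlapped each other.
Cd53, chr3:106790100-106790399, minus strand: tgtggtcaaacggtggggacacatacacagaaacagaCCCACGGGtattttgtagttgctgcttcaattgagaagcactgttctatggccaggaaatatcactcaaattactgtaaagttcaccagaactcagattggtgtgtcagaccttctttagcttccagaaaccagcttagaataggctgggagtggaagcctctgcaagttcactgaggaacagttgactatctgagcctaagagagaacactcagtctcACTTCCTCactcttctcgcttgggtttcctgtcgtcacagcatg
Cd37, chr7:45238790-45239089, minus strand: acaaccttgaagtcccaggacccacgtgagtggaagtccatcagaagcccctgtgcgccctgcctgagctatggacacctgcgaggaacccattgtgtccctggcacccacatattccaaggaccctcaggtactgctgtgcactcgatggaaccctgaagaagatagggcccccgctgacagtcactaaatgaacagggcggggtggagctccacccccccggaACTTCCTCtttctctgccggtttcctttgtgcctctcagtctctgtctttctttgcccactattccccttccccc
Cd72, chr4:43454577-43454876, minus strand: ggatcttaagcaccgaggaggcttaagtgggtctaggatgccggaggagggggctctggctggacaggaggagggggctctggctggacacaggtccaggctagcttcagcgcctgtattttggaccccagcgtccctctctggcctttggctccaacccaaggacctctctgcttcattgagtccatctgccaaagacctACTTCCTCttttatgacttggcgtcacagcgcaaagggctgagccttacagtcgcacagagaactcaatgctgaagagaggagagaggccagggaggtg
Cd38, chr5:43868559-43868858, plus strand: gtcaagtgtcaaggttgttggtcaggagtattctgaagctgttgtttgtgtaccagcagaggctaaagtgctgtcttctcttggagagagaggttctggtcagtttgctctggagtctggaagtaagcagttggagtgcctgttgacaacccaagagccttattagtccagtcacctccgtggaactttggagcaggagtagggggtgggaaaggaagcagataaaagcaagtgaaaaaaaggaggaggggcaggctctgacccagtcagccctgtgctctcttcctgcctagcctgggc
The match began 49 bases before the start in Cd72, 25 bases before it in Cd37 and 6 bases after it in Cd53. Among the other members, AP-1 letters were found in 2 of the 3 Fcer2a promoters and EBF letters in that of Cd55, where AP-1 letters occur in 7.79% and EBF letters in 13.7% of all promoters. The octamer, NF-kB and STAT letters, found in 1.75%, 5.83% and 8.33% of all promoters, were in none of the members' windows, and the Ptprc windows held none of the 6 motifs. The 3 ETS-bearing members did not share a result: Cd53 separated the groups, and Cd37 and Cd72 did not.

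Of the 10 members, 8 had a lower mean fitted level in HET and 2 a higher one. In the edgeR quasi-likelihood test with Benjamini-Hochberg adjustment over all genes, no member passed an adjusted p of 0.05, and 3 genes of all those tested did (0.0235%). At an unadjusted p under 0.05, 6 members were lower (3.88% of all genes tested) and 1 was higher in HET (3.34%). Under DESeq2, the tool of the study, Cd38 alone among the members passed, where 0.687% of the genes with an adjusted p were called. The median log2 fold change (HET minus WT) was -0.19 over the members and -0.001 over all genes tested, of which 50.1% had a fitted value below 0. In bulk samples such as these, fewer cells of a type and less RNA per cell cannot be told apart.

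The groups did not overlap for 5 members. Cd38, Ms4a1, Cd53 and Ptprc were lower in every HET library than in any WT library, as were 2.62% of all genes tested. Cd24a was higher in every HET library, as were 1.99% of all genes tested. Because abundant genes are measured more closely, the same was counted over the 3892 genes at least as abundant as the lowest member, Cd1d1. Of these, 3.88% did not overlap with HET lower and 2.42% with HET higher, 6.68% were lower at an unadjusted p under 0.05, and 49.9% had a fitted value below 0.

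**Figure D1:**
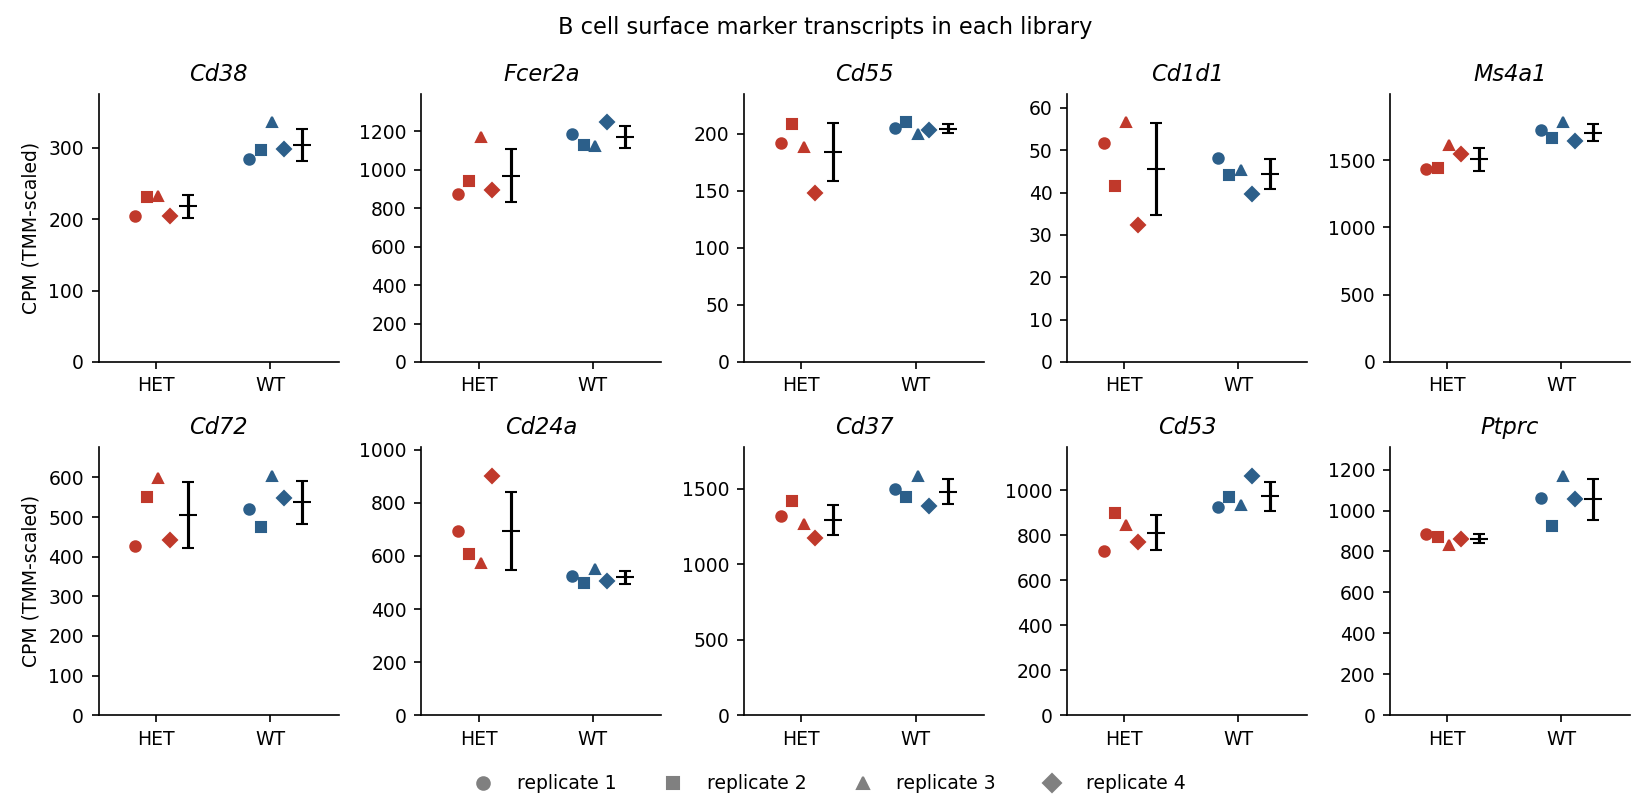
CPM after TMM scaling (vertical axes from 0) of each of the 10 members in the 4 HET (red) and 4 WT (blue) libraries, with the marker shape giving the replicate number and black bars giving mean ± SD. The HET and WT points of Cd38, Ms4a1, Cd53 and Ptprc do not overlap, with HET below, and those of Cd24a do not overlap, with HET above.

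Cd38, an ectoenzyme that degrades NAD and a marker of naive mouse B cells, showed the clearest difference. It was at 204, 231, 233 and 205 CPM in HET replicates 1 to 4 and at 284, 297, 336 and 298 CPM in WT replicates 1 to 4. The highest HET library lay 50.2 CPM below the lowest WT library. The means were 218 ± 16.1 CPM in HET and 304 ± 22.5 CPM in WT (SD, n = 4 each). The log2 fold change was -0.48 (SE 0.10, a level 28.2% lower), with an adjusted p of 0.212 in edgeR and 0.00251 in DESeq2, so that the call depended on the tool. By unadjusted p, Cd38 ranked 14 among all 12744 genes. Leaving out each library in turn gave log2 fold changes of -0.51 to -0.42 and DESeq2 adjusted p-values of 0.0024 to 0.0195, below 0.05 in 8 of 8 fits, and edgeR adjusted p-values of 0.168 to 0.493, below 0.05 in none.

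Fcer2a, the low-affinity IgE receptor of follicular B cells, was at 872, 942, 1170 and 894 CPM in HET and at 1188, 1130, 1124 and 1248 CPM in WT. HET replicate 3 lay among the WT libraries and the other 3 HET libraries below all of them. The log2 fold change was -0.27 (SE 0.09, edgeR adjusted p = 0.554). Without HET replicate 3 it was -0.37, and DESeq2 then called Fcer2a (adjusted p = 0.00219 against 0.297 with all libraries).

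The other 2 markers of resting subsets did not separate the groups. Cd55, which protects cells from complement, was at 192, 208, 188 and 148 CPM in HET and at 205, 209.9, 199.8 and 203 CPM in WT. The WT libraries lay within a narrow range (204 ± 4.29 CPM), and the HET libraries (184 ± 25.3 CPM) reached from HET replicate 4, the lowest, to HET replicate 2 among the WT values. Its log2 fold change was -0.15 (SE 0.11, edgeR adjusted p = 0.825), and -0.06 without HET replicate 4. Cd1d1, which presents lipids to NKT cells, was at 51.6, 41.6, 56.6 and 32.3 CPM in HET and at 48.2, 44.2, 45.3 and 39.7 CPM in WT. The HET libraries enclosed the whole WT range, the fitted difference was 0.04 (SE 0.20, edgeR adjusted p = 0.98), and its sign turned when certain libraries were left out or the TPM values were used.

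Among the markers kept through mature B cell life, Ptprc, the CD45 phosphatase that sets the activity of Src-family kinases, had the lowest p. Its levels were 887, 873, 834 and 859 CPM in HET and 1064, 926, 1171 and 1056 CPM in WT. The HET libraries agreed to within an SD of 22.4 CPM, and the difference in log2 was -0.29 (SE 0.08, edgeR adjusted p = 0.344, DESeq2 adjusted p = 0.12). DESeq2 called Ptprc only in the fit without WT replicate 2, the lowest WT library (adjusted p = 0.00552). B220, a CD45 isoform, was part of the sort gate, so the level of this gene was also subject to the selection of the cells. The recipients carried the CD45.1 allele in both groups.

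Ms4a1, which encodes the CD20 target of B cell-depleting antibodies, was at 1430.1, 1443, 1609 and 1547 CPM in HET and at 1723, 1667, 1781 and 1640.4 CPM in WT. The gap between the groups was 31.2 CPM, and the log2 fold change was -0.18 (SE 0.06, edgeR adjusted p = 0.579). Cd53, a tetraspanin that organises receptors in the leukocyte membrane, was at 728, 900.4, 845 and 768 CPM in HET and at 924, 968, 933 and 1065 CPM in WT. HET replicate 2 came within 23.8 CPM of the lowest WT library. The log2 fold change was -0.26 (SE 0.08, edgeR adjusted p = 0.506).

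Cd37, the other tetraspanin among the members, was at 1319, 1418, 1268 and 1176 CPM in HET and at 1501, 1449, 1589 and 1389 CPM in WT. The groups overlapped only through HET replicate 2 and WT replicate 4, and without either of them they were separate (as were 7.62% of all genes with HET replicate 2 left out and 7.48% with WT replicate 4 left out). The log2 fold change was -0.19 (SE 0.07, edgeR adjusted p = 0.6). Cd72, an inhibitory co-receptor of the antigen receptor, was at 428, 549.8, 599 and 441 CPM in HET and at 521, 476, 605 and 549 CPM in WT. Its ranges overlapped broadly, and the log2 fold change was -0.09 (SE 0.12, edgeR adjusted p = 0.909). It was -0.02 without HET replicate 1 or WT replicate 3, -0.03 without HET replicate 4, -0.14 without WT replicate 2 and -0.18 without HET replicate 3.

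Cd24a, a small glycoprotein held in the membrane by a lipid anchor, was the one member above WT without overlap. It was at 694, 609, 573 and 903 CPM in HET and at 525, 497, 551 and 504 CPM in WT. The WT libraries were close together (SD 24.4 CPM) and the HET libraries spread widely (SD 148 CPM), with HET replicate 4 highest. The log2 fold change was 0.42 (SE 0.12, a level 33.9% higher), with an adjusted p of 0.428 in edgeR and 0.129 in DESeq2. Without HET replicate 4 the log2 fold change was 0.27, and DESeq2 called the gene only without HET replicate 3 (adjusted p = 0.0308). On the deposited TPM scale the groups of this gene overlapped, at 669 ± 136 TPM in HET and 519 ± 36.8 TPM in WT (SD, n = 4 each).

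The ratio of Cd24a to Cd38, which does not depend on library scaling, was 3.4, 2.64, 2.46 and 4.41 in HET and 1.85, 1.67, 1.64 and 1.69 in WT. This ratio was formed after the values were seen and is given without a test. The WT libraries lay in a narrow band and every HET library above it. Cd24a was higher and Cd38 lower in every HET library, so this separation was fixed in advance and is not a further result.

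**Figure D2:**
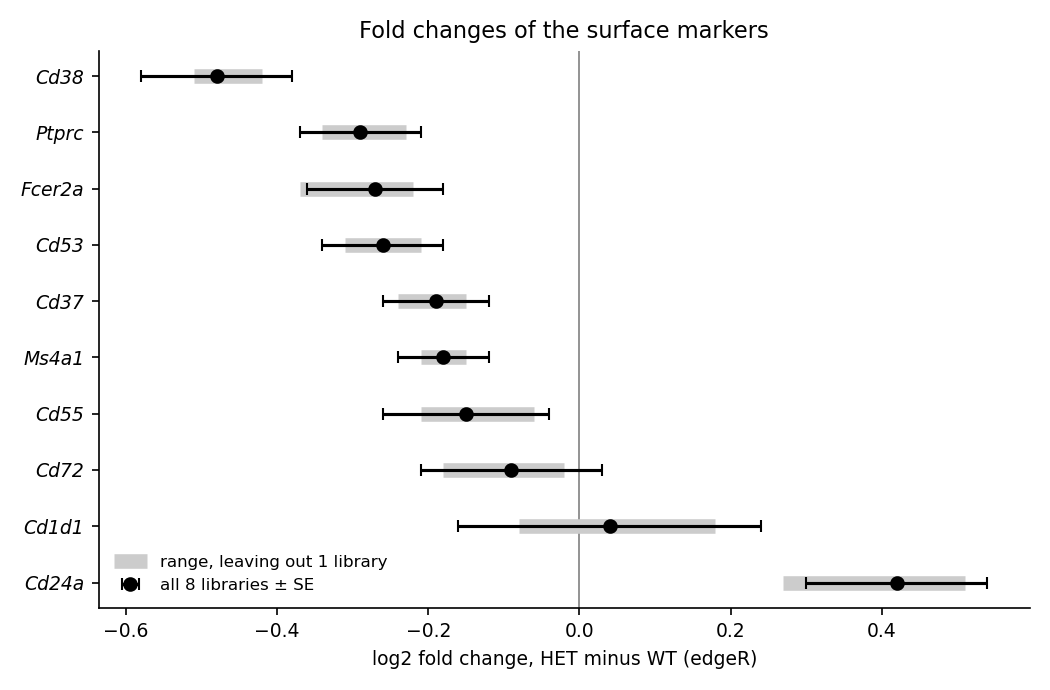
Log2 fold change (HET minus WT, edgeR) of each member with all 8 libraries (point ± SE) and the range over the 8 fits that leave out 1 library (grey bar). The grey bar crosses 0 for Cd1d1 only, and Cd38 (-0.48) and Cd24a (0.42) lie farthest from 0 on either side.

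The members also differed in how closely the libraries of a group agreed. The coefficient of variation (SD over mean) ranged from 2.59% for Ptprc to 23.8% for Cd1d1 in HET and from 2.1% for Cd55 to 10.05% for Cd72 in WT. It was larger in HET than in WT for 8 members, all but Cd38 and Ptprc, with medians of 11.6% and 6.18%. Over all genes tested, HET had the larger value in 48.6%. Over the 3892 genes at least as abundant as Cd1d1 it did in 49.4%, with medians of 13.6% in HET and 13.4% in WT. The members' median thus lay below that of these genes in both groups, and farther below it in WT. Each member had at least 213 counts in every library, so the spread expected from counting alone was at most 6.85%, for Cd1d1, and 0.743% to 3.2% for the others. HET replicate 1 had the lowest level of 5 members and HET replicate 4 of 3, while WT replicate 3 had the highest of 5. Without HET replicate 1 the log2 fold changes were -0.44 for Cd38, -0.30 for Ptprc, -0.21 for Cd53, -0.15 for Ms4a1 and 0.43 for Cd24a, and the same 5 members separated the groups, as did 9.31% of all genes in those 7 libraries.

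Summed levels of the members and of other gene lists were also compared between the groups. The sum of the 10 members follows from the values given above and is not a further result. It was 7093 ± 254 CPM in HET and 7993 ± 274 CPM in WT (SD, n = 4 each), with all HET libraries below all WT libraries. The 10 B cell markers, none of them a member, showed the same order, with 8 lower and 2 higher in HET and none called by edgeR. Among them Cd79b, a signalling chain of the antigen receptor, was at 2290.0 to 2728 CPM in HET and 2825 to 3121 CPM in WT. Of the T cell genes tested, 12 of 13 were higher in HET, and so were 9 of 9 NK cell genes and 9 of 11 plasmablast genes. Cell cycle genes were higher in HET in 19 of 20 cases, with sums of 1411 to 2016 CPM in HET and 862 to 1446 CPM in WT. Of all genes tested, 50.1% had a fitted value below 0. No gene of the T cell, NK cell, plasmablast and cell cycle lists was called by edgeR, and the sum of each list overlapped between the groups. The part of these cells and states in the members' differences was not tested.

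When each member was divided by the summed B cell markers of its library, rescaled to the WT mean, 2 members still separated the groups, 1 in each direction. On this scale the median log2 ratio of the means over all genes tested was 0.18, and 0.777% of them separated the groups with HET lower and 6.74% with HET higher, so separation upward was more common than as CPM. Cd38 was then at 229.8, 264, 252 and 245 in HET and 278, 309, 320 and 308 in WT, with a log2 ratio of the means of -0.30. Cd24a was at 782, 696, 618 and 1079 in HET and 514, 517, 524 and 520 in WT, with a log2 ratio of 0.61. Ptprc (-0.10), Cd53 (-0.08) and Ms4a1 (0.01) overlapped on this scale, as did Fcer2a (-0.10) and Cd37 (-0.01). The summed members were at 8052 ± 302 in HET and 7996 ± 185 in WT. With the geometric mean of the same markers in place of their sum, Ptprc (-0.14) also separated the groups, and Cd38 (-0.33) and Cd24a (0.56) did as before. The median over all genes was then 0.14, with 0.918% separated with HET lower and 3.99% with HET higher. This scaling was added after the data were seen.

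**Figure D3:**
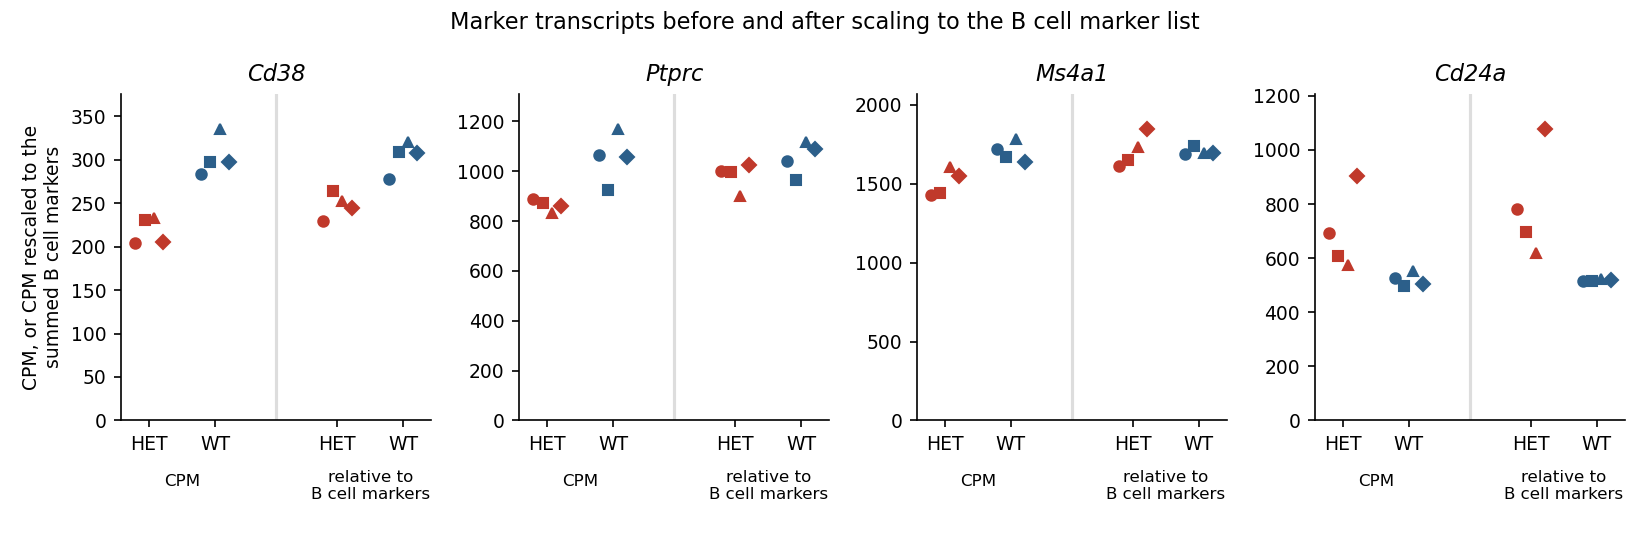
Levels of Cd38, Ptprc, Ms4a1 and Cd24a in HET (red) and WT (blue) libraries, on the left of each panel as CPM and on the right after division by the summed B cell markers and rescaling to the WT mean. Cd38 and Cd24a separate the groups on both scales, and Ptprc and Ms4a1 only as CPM.

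Levels were compared between genes per kb of the longest coding transcript. On this length Cd37 was highest, at 509.8 ± 39.8 CPM per kb in HET and 583 ± 33.4 in WT, and Cd1d1 lowest, at 23.4 ± 5.56 and 22.8 ± 1.82 (SD, n = 4 each). Cd37, Ms4a1, Cd53 and Fcer2a formed an upper set, with means of 432 to 509.8 CPM per kb in HET and 523 to 583 in WT, in which the ranges of neighbours overlapped in both groups. Cd24a stood below them in WT (286 ± 13.4 CPM per kb), where its range was apart from that of Fcer2a, whereas in HET (382 ± 81.3 CPM per kb) the ranges overlapped. Cd72 and Ptprc overlapped in both groups, at 195 ± 32.4 and 170.1 ± 4.41 CPM per kb in HET and at 208 ± 20.9 and 208 ± 19.8 in WT. The order of Cd38 and Cd55 depended on the length used. In WT, Cd38 (92.9 ± 6.89 CPM per kb) was above Cd55 (80.7 ± 1.69) with no overlap, and in HET the means were 66.7 ± 4.94 and 72.6 ± 9.99 CPM per kb and the ranges overlapped. Per kb of all exons of the gene, Cd38 was above Cd55 with no overlap in both groups, at 56.1 ± 4.15 against 37.9 ± 5.21 CPM per kb in HET and 78.1 ± 5.79 against 42.1 ± 0.884 in WT. In TPM, Cd55 was above Cd38 in both, at 47.8 ± 7.13 against 29.0 ± 3.15 TPM and 54.9 ± 1.19 against 41.7 ± 4.31 TPM. The order of other members also depended on the length. Per kb of all exons, Cd53 was highest (465 ± 44.2 in HET, 558 ± 37.1 in WT), with no overlap with Cd37 (368 ± 28.7 and 421 ± 24.1). In HET the mean of Cd24a (269 ± 57.3) was then above that of Ms4a1 (244 ± 13.9). Cd72 (147 ± 24.5 and 157 ± 15.8) was then above Ptprc (47.1 ± 1.22 and 57.6 ± 5.49) with no overlap.

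The deposited TPM gave another order, which depends on the gene length used. The ratio of count to TPM followed the span of a gene with its introns (r = 0.982 on the log scale across 17283 genes, which are not independent) more closely than the length of its exons (r = 0.787) or its longest transcript (r = 0.77). Cd53, with a transcript of 1742 bases in a span of 30229 bases, was at 79.7 ± 10.3 TPM in HET and 98.6 ± 6.22 TPM in WT, rank 6 of 10 in TPM and rank 3 per kb of transcript. Cd1d1, with 1946 bases in a span of 3608, was at 61.4 ± 14.8 TPM and 61.9 ± 5.23 TPM, rank 7 in TPM and rank 10 per kb. Comparisons of 1 gene between libraries are not touched by a fixed length beyond the rescaling of each library's total.

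**Figure D4:**
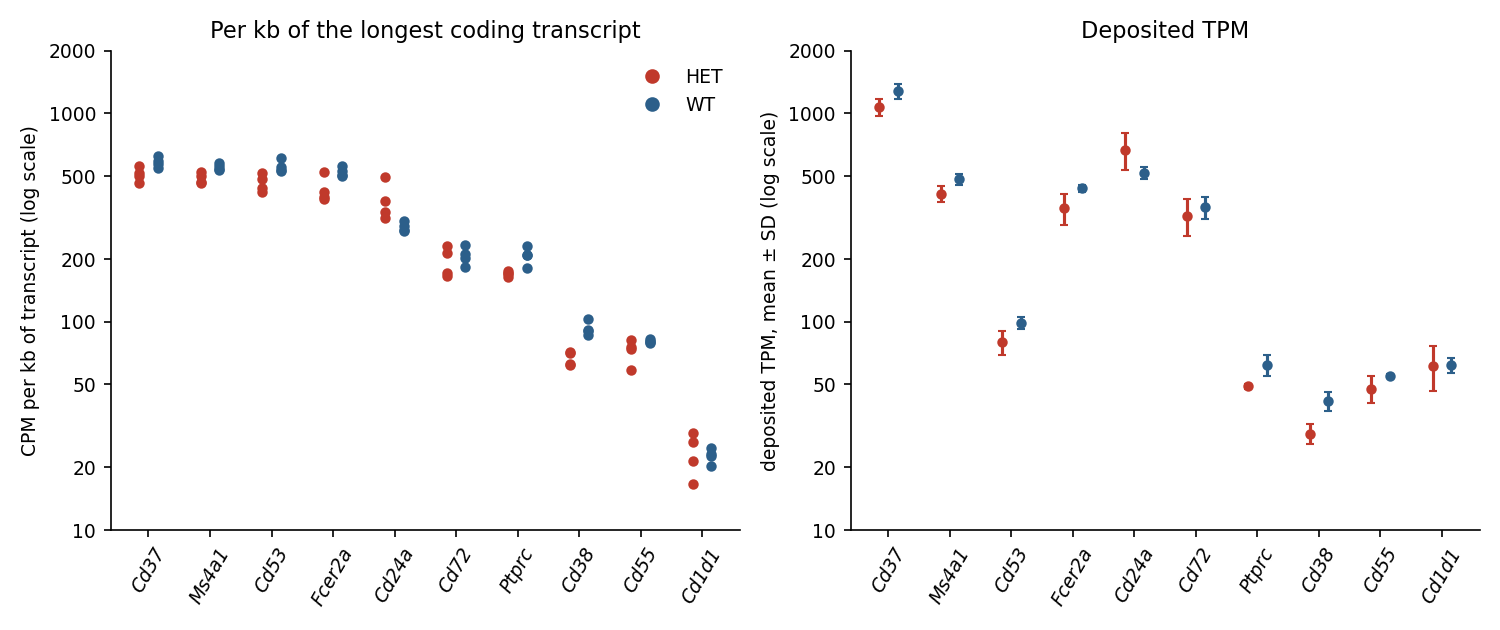
Levels of the 10 members on log axes, as CPM per kb of the longest coding transcript in each library (left) and as the mean ± SD of the deposited TPM (right), HET in red and WT in blue. Cd53 is among the 4 highest genes on the left and among the 5 lowest on the right.

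Genes of the families and partners of the members were placed in 9 lists of 126 distinct genes, of which 107 were tested. Of these, 67 were lower and 40 higher in HET, with a median log2 fold change of -0.10. None was called by edgeR. At an unadjusted p under 0.05, 18 were lower and 5 higher, beside 3.88% and 3.34% of all genes tested. Among all the listed genes DESeq2 called 5, including Tspan33, which did not enter the edgeR test. DESeq2 called 0.687% of all genes with an adjusted p. Of the 107 tested, the groups did not overlap for 10 with HET lower and 1 with HET higher, beside 2.62% and 1.99% of all genes tested.

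Other surface markers of resting mature B cells resembled the members in direction. Of 18 genes tested, 16 were lower and 2 higher, and the median was -0.16. At an unadjusted p under 0.05, 7 were lower, as were 3.88% of all genes tested. Il4ra, a chain of the IL-4 receptor, was at 174 ± 9.68 CPM in HET and 232 ± 20.9 CPM in WT (log2 fold change -0.41, SE 0.10, adjusted p = 0.28 in edgeR and 0.017 in DESeq2). Cxcr5, the receptor that guides B cells into follicles, went the other way, at 331 ± 40.2 CPM in HET and 274 ± 18.8 CPM in WT (0.27, SE 0.10, edgeR adjusted p = 0.602). Ighd, in this list and subject to the IgD-low gate, was at 1583 ± 207 CPM in HET and 1910.0 ± 107 CPM in WT (-0.27, SE 0.09, edgeR adjusted p = 0.527).

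Surface markers of activated and germinal center B cells were divided, with 8 lower and 11 higher of 19 and a median of 0.06. Cd83, a marker of activated cells, was at 650.3 ± 122 CPM in HET and 921 ± 107 CPM in WT (-0.50, SE 0.13, adjusted p = 0.299 in edgeR and 0.0488 in DESeq2). Fas, a death receptor carried by germinal center B cells, was low but higher in every HET library, at 10.1, 15.7, 14.4 and 17.1 CPM against 7.51, 6.2, 6.18 and 7.2 CPM in WT (1.08, SE 0.32, adjusted p = 0.484 in edgeR and 0.0578 in DESeq2).

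Among inhibitory receptors and their effectors, the group of Cd72, 12 of 15 tested were lower and 3 higher, with a median of -0.23. Cd22, a sialic acid-binding inhibitor of the antigen receptor that is also in the B cell marker and resting marker lists, was at 748, 715, 696 and 741 CPM in HET and at 935, 818, 949.6 and 1045 CPM in WT. The groups did not overlap (-0.37, SE 0.08, adjusted p = 0.22 in edgeR and 0.0159 in DESeq2). Lair1, a collagen receptor, was at 12.7 ± 10.3 CPM in HET and 3.09 ± 2.15 CPM in WT (2.04, SE 0.81, edgeR adjusted p = 0.613).

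Tetraspanins beside Cd37 and Cd53 gave 10 lower and 4 higher of 14 tested, with a median of -0.06. Cd82 was at 104 ± 27.7 CPM in HET and 71.0 ± 5.58 CPM in WT (0.55, SE 0.18, edgeR adjusted p = 0.559), and Tspan31 at 59.6 ± 6.78 CPM and 66.4 ± 8.76 CPM (-0.15, SE 0.16, edgeR adjusted p = 0.88, and -0.24 without WT replicate 1). Tspan33, chosen after its values were seen and too low for the edgeR filter, was called by DESeq2 (adjusted p = 0.0028). It was at 0.322, 3.24, 8.84 and 2.12 CPM in HET and had at most 1 count in any WT library.

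Partners of CD45 and Src-family kinases gave 9 lower and 5 higher of 14, with a median of -0.10. Pag1, a membrane adaptor that recruits the kinase Csk, was at 37.9 ± 5.79 CPM in HET and 57.7 ± 20.8 CPM in WT (-0.61, SE 0.24, edgeR adjusted p = 0.604, and -0.34 without WT replicate 4), and Lck at 138 ± 24.8 CPM and 120.3 ± 24.4 CPM (0.20, SE 0.16, edgeR adjusted p = 0.85, and 0.08 to 0.31 without 1 library). Lck is also in the T cell list. Genes of lipid loading and partners of CD1d gave 7 lower and 4 higher of 11, with a median of -0.15. The groups were separate with HET lower for 3 of them, as for 2.62% of all genes tested. Lamp1, a lysosomal membrane protein, was at 162 ± 24.9 CPM in HET and 207 ± 15.6 CPM in WT (-0.36, SE 0.12, edgeR adjusted p = 0.569). Ctsl, a lysosomal protease, was at 13.2 ± 8.55 CPM and 6.73 ± 3.39 CPM (0.97, SE 0.51, edgeR adjusted p = 0.732, and 0.53 without HET replicate 1).

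NAD enzymes beside Cd38 gave 5 lower and 5 higher of 10, with a median of 0.06. Nadsyn1, which completes NAD synthesis from nicotinic acid, was at 9.08, 7.12, 10.9 and 10.6 CPM in HET and at 14.3, 29.5, 33.2 and 20.1 CPM in WT. The groups did not overlap (-1.36, SE 0.32, adjusted p = 0.254 in edgeR and 0.0121 in DESeq2). Sirt1, an NAD-dependent deacetylase, was at 9.64 ± 0.683 CPM and 7.19 ± 1.69 CPM (0.42, SE 0.35, edgeR adjusted p = 0.848).

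In the MS4A family, 10 of 14 genes were measured and 5 tested, with 3 lower and 2 higher. Ms4a4a was at 10.8 ± 1.27 CPM in HET and 15.9 ± 3.61 CPM in WT (-0.56, SE 0.29, edgeR adjusted p = 0.732), and Ms4a4b at 118 ± 66.0 CPM and 60.5 ± 32.0 CPM (0.97, SE 0.55, edgeR adjusted p = 0.783, and 0.52 without HET replicate 2). Of 5 complement regulators tested, 1 was lower and 4 higher, with a median of 0.03. Cr2, the complement receptor CD21, was at 187 ± 16.2 CPM and 199 ± 31.8 CPM (-0.09, SE 0.12, edgeR adjusted p = 0.925), Cd46 at 3.73 ± 2.94 CPM and 3.49 ± 1.33 CPM, and Cd55b had a log2 fold change of 0.07 (SE 0.68).

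**Figure D5:**
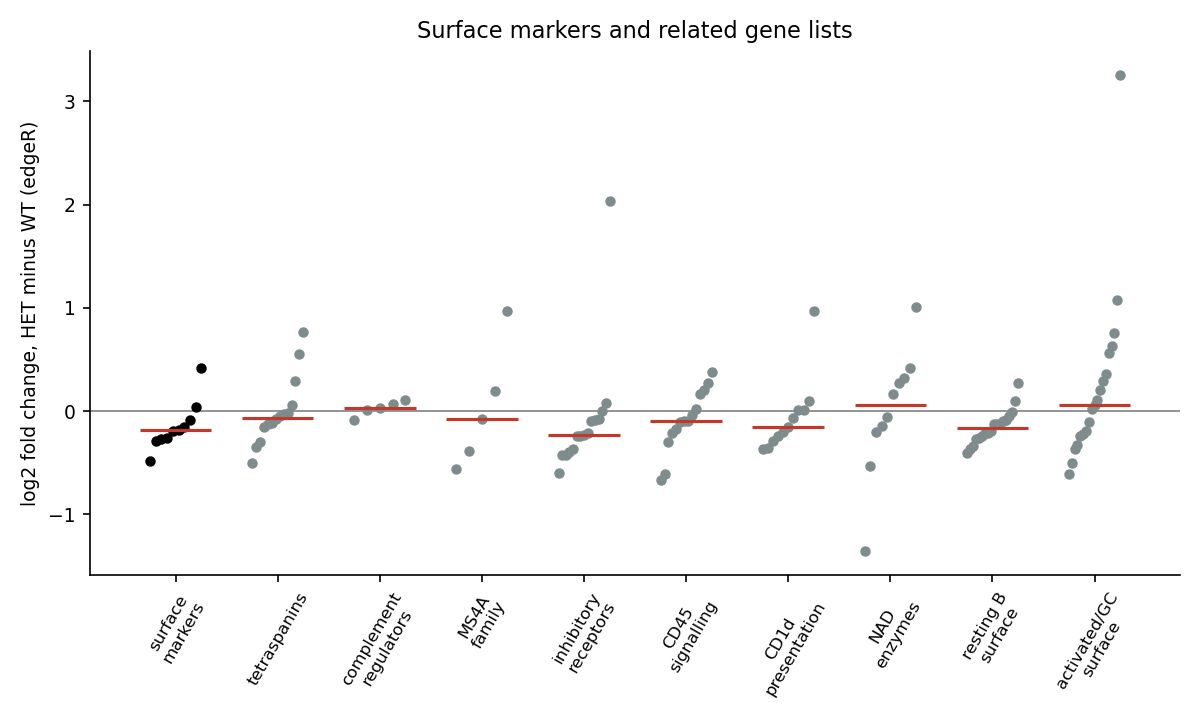
Log2 fold change (HET minus WT, edgeR) of the 10 members (black) and of the tested genes of 9 related lists (grey), with the median of each list as a red line. The median is -0.19 for the members, -0.23 for inhibitory receptors, -0.16 for resting B cell surface markers and 0.06 for activated and germinal center surface markers.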

How the data were processed

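The authors prepared the libraries by a SMART-Seq2 protocol, aligned reads to GRCm38 (mm10) with HISAT2 2.2.1 and counted them per gene with HTSeq. Strand setting, annotation release and treatment of multiply aligned reads are not given in the sources used here. The deposited counts are whole numbers of reads for 24259 genes. The deposited TPM table holds 24232 genes, and the authors' TPM scale with gene span, so levels between genes are given here as CPM per kb of the longest GENCODE M21 coding transcript in place of the TPM planned. SMART-Seq2 has no molecular identifiers, so counting errors cover counting only.

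Counts were compared (HET minus WT) in R 4.3.3 with edgeR 4.0.16: filterByExpr, TMM, robust quasi-likelihood F-test over all 12744 genes kept, Benjamini-Hochberg adjustment, threshold 0.05. SE was computed as log2 fold change over the root of F. Alternatives were DESeq2 1.42.0, limma 3.58.1, other scalings and filters, and leaving out each library. Libraries were grouped by their titles. The members and lists were chosen with earlier results of these data known. All members are named, and from each related list the gene with the lowest p in each direction, members and genes already named being passed over, besides Cd1d2 and Cd55b.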

Additional observations from a re-analysis of the deposited data

How the results depend on the processing

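The 10 members were refitted under 11 other settings and without each of the 8 libraries. Every member but Cd1d1 kept its direction in all 19 fits, and edgeR and limma called none of them. Cd1d1 had log2 fold changes of -0.04 in the 3 limma-trend fits on TPM and -0.08 to 0.18 without 1 library, below 0 without HET replicate 1 (-0.02), HET replicate 3 (-0.08) or WT replicate 4 (-0.01). The number of members called was 1 with DESeq2, and in DESeq2 fits without 1 library it was 1 to 3, the 3 being Cd38, Fcer2a and Cd24a (HET replicate 3 left out) and 2 being Cd38 and Ptprc (WT replicate 2 left out). Over all genes, 3 were called by edgeR, 95 by DESeq2, 38 with no filter on low counts, 7 with a mean of at least 50 counts, 6 by limma-voom with sample weights, 0 by the limma-trend fits, 8 at an adjusted p under 0.1 and 1 to 6 without 1 library. DESeq2 without 1 library called 40 to 125 genes, falling to 40 (HET replicate 2 left out), 60 (WT replicate 3) and 53 (WT replicate 4). The cause of these differences was not tested. Of the related genes, 5 were called with DESeq2 and 1 with no filter on low counts. Members that separated the groups in either direction numbered 5 (4.61% of all genes), 4 on the TPM scale (4.75%), 2 after division by the summed B cell markers (7.52%), 3 after division by their geometric mean (4.91%), and 5 to 7 without 1 library (7.27% to 9.31%). Among related genes, Cr2 was at -0.13 to 0.04 without 1 library, above 0 only without WT replicate 3. Cd46, which had at most 7.96 CPM in any library, was at -0.14 with the replicate block, -0.01 in limma-trend with no filter, -0.002 in limma-voom, and -0.58 to 0.36 without 1 library, and Cd55b was at -0.06 to 0.27 without 1 library.

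The replicate numbers did not pair the libraries: deviations of HET and WT libraries of the same number correlated at 0.0133, 0.0614, -0.00445 and 0.000421 over 7103 genes. With the replicate number as a block, edgeR called 0 genes and 0 members, and 7 members had an unadjusted p under 0.05, as without the block.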
